A study of Mus musculus with 6 samples.

Results

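The cytosolic ribosomal protein genes are the genes for the proteins that, with ribosomal RNA, build the 40S and 60S subunits of the ribosome. Here they were the 85 genes, of 49671 in the count table, whose symbol follows the Rpl, Rps and Rplp naming. Pseudogenes named -ps and the Rps6k kinases were left out. Of the 85 genes, 76 encode ribosomal proteins proper, 31 of the 40S and 45 of the 60S subunit. Another 8 are paralogs or retrogene copies (Rpl22l1, Rpl36al, Rpl37rt, Rpl7l1, Rps27l, Rps27rt, Rps3a3 and Rps4l). The last is Rps19bp1, which encodes a nucleolar binding partner of Rps19 and no ribosomal protein. The RNA came from primary pancreatic stellate cells (PSCs) of C57BL6/J WT mice, the resident fibroblasts of the pancreas, cultured for 120 h in medium whose extracellular pH (pHe) was 6.6 or 7.4. Both groups grew on plastic in DMEM/Ham F12 with serum, and the amount of sodium bicarbonate set the pHe. Each group had 3 biological replicates, A, B and C. The study counts biological replicates by mouse, and the labels do not say whether a letter stands for the same mouse in both groups. PSCs were obtained by collagenase digestion and adherence, with no sort for a marker, which limits their purity.

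Ribosomal proteins are needed in equal numbers, because each ribosome holds 1 copy of most of them, and their mRNAs are among the most abundant of a growing cell. Most of these mRNAs begin with a 5′ terminal oligopyrimidine (TOP) tract, a cytosine followed by a run of pyrimidines, through which the kinase mTOR and the RNA-binding protein LARP1 control their translation. That control acts on translation, while the values here are levels of poly(A) RNA. Rpl5 and Rpl11 form a particle with the 5S ribosomal RNA that can bind Mdm2 and thereby raise p53. The comparison asks how the mRNA levels of these proteins differ between PSCs in an acidic and in a slightly alkaline medium.

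The TOP tract could be looked at in the start windows of the RefSeq promoters on GRCm38.p6. The window ran from 10 bases before to 20 bases after each annotated start. A run was counted where a C was followed by at least 5 letters that are each C or T, read on the strand of the gene and without a search for other motifs. A promoter was matched for 63 of the 85 genes, and 36 of the 63 (57.1%) held a run. The same was true of 6735 of 27025 genes (24.9%) in the whole promoter table. The windows below belong to the 4 genes with a run and the smallest adjusted p on either side of the comparison. They are shown because genes with such a run in the window stood in both directions. The first 10 letters lie before the annotated start. In Rpl10a the whole run lies there, and in Rpl13a, Rpl22l1 and Rps19 it begins past the start. A run in the window thus need not open the mRNA. Capitals mark the run. The first 4 windows belong to genes with higher levels at pHe7.4 and the last 4 to genes with higher levels at pHe6.6.
Rpl13a: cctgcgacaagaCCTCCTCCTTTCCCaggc
Rpl22l1: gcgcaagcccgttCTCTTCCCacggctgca
Rpl10a: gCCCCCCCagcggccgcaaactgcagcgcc
Rpl14: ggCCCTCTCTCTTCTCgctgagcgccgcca
Rpl28: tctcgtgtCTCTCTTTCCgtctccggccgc
Rpl31: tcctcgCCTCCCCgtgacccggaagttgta
Rps27: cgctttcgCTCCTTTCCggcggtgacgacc
Rps19: agcggggtgtggagggCTCTCCCacgcggt

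These windows lie at chr7:45128726-45128755 (minus strand, Rpl13a), chr3:28805498-28805527 (plus, Rpl22l1), chr17:28328461-28328490 (plus, Rpl10a) and chr9:120571507-120571536 (plus, Rpl14). The windows of the genes with higher levels at pHe6.6 lie at chr7:4792955-4792984 (plus, Rpl28), chr1:39367841-39367870 (plus, Rpl31), chr3:90213629-90213658 (minus, Rps27) and chr7:24884903-24884932 (plus, Rps19). A match is a description of letters and not a mapped start of transcription. Rpl10a and Rps19 have several annotated starts.

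The 6 libraries held between 28904761 and 38331877 counts, so 1 count was worth 0.0261 to 0.0346 CPM, the counts of a gene relative to all counts of its library on a common scale. Levels are CPM scaled by TMM, a method that sets libraries to a common level by assuming that most genes do not differ, and the TMM factors were 0.927 to 0.953 at pHe6.6 and 1.04 to 1.09 at pHe7.4. Of the 12 fibroblast and stellate markers, 11 were abundant enough to test (Gfap was not), with a summed level of 37600 to 40500 CPM at pHe6.6 against 38700 to 48800 CPM at pHe7.4. Of these, Pdgfra, Pdgfrb, Lum, Dcn, Thy1 and Des (6 of 11) were called with higher levels at pHe6.6 and 1, Col1a1, the other way, with a median log2 fold change of −0.65. Markers of other cells were present too. The 14 mesothelial markers summed to 252 to 597 CPM at pHe6.6 against 1370 to 1520 CPM at pHe7.4, with 9 called higher and 1 lower at pHe7.4. The 15 macrophage markers summed to 632 to 1220 CPM and 570 to 869 CPM, and the 6 duct markers to 72 to 259 CPM and 426 to 599 CPM. The 2 of 6 B cell markers that were tested summed to 57.4 CPM in replicate C at pHe6.6 and to at most 1.72 CPM elsewhere. The 6 endothelial markers summed to 14.8 to 27.6 CPM and 40.7 to 51.5 CPM, the 6 pericyte markers to 401 to 450 CPM and 162 to 238 CPM, and the 6 endocrine markers to 5.9 to 84.3 CPM and 72.4 to 175 CPM. Of the 6 pericyte markers, Notch3, the most abundant at pHe6.6, was called lower at pHe7.4, while 3 (Rgs5, Kcnj8 and Mcam) were called the other way, and the median log2 fold change was 0.98. No listed marker was at 0 in all libraries. The part of such cells in the differences below was not tested, and in bulk RNA fewer cells of a type and less RNA per cell cannot be told apart.

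Ribosomal protein mRNA levels differed little between the groups, and they did not move as a block. Rpl13a, a 60S protein that in human cells also acts in interferon-induced silencing of translation, had the largest increase at pHe7.4 among genes with at least 1 CPM, at 1.66-fold. Rpl36 and Rps15 had the largest decreases, to 0.708-fold and 0.723-fold of the level at pHe6.6. A gene was called where edgeR's quasi-likelihood test gave an adjusted p under 0.05 over all 15197 genes tested. Of the 85 genes, 11 were called with higher levels at pHe7.4, where the share of all genes tested was 25.9%. Another 20 were called with higher levels at pHe6.6, where that share was 26.4%. The remaining 54 were not called. In total 36.5% of the ribosomal protein genes were called, against 52.3% of all genes tested and 59.5% of those with a mean of at least 50 CPM.

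The median log2 fold change (pHe7.4 over pHe6.6) was −0.06, with quartiles of −0.23 and 0.13. Over all genes tested, the median was 0.01 and the quartiles were −0.38 and 0.40. In total 34 of the genes had values above 0 and 51 below. Only Rpl13a was both called and past an absolute log2 fold change of 0.58, the limit the study used for its gene lists, and this was the case for 29.8% of all genes. Rpl23a and Rps3a3 also lay past 0.58, but both had a mean under 1 CPM and neither was called. Called or not, 35.1% of all genes and 23.9% of those with at least 50 CPM lay past it. The median standard error was 0.087 on the log2 scale for the ribosomal protein genes and 0.116 for all genes. The 3 libraries of one group lay all above or all below those of the other for 40 genes (47.1%), against 63.2% of all genes tested. Of these, 17 had their higher levels at pHe7.4 (31.7% of all genes did) and 23 at pHe6.6 (31.5%).

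**Figure D1:**
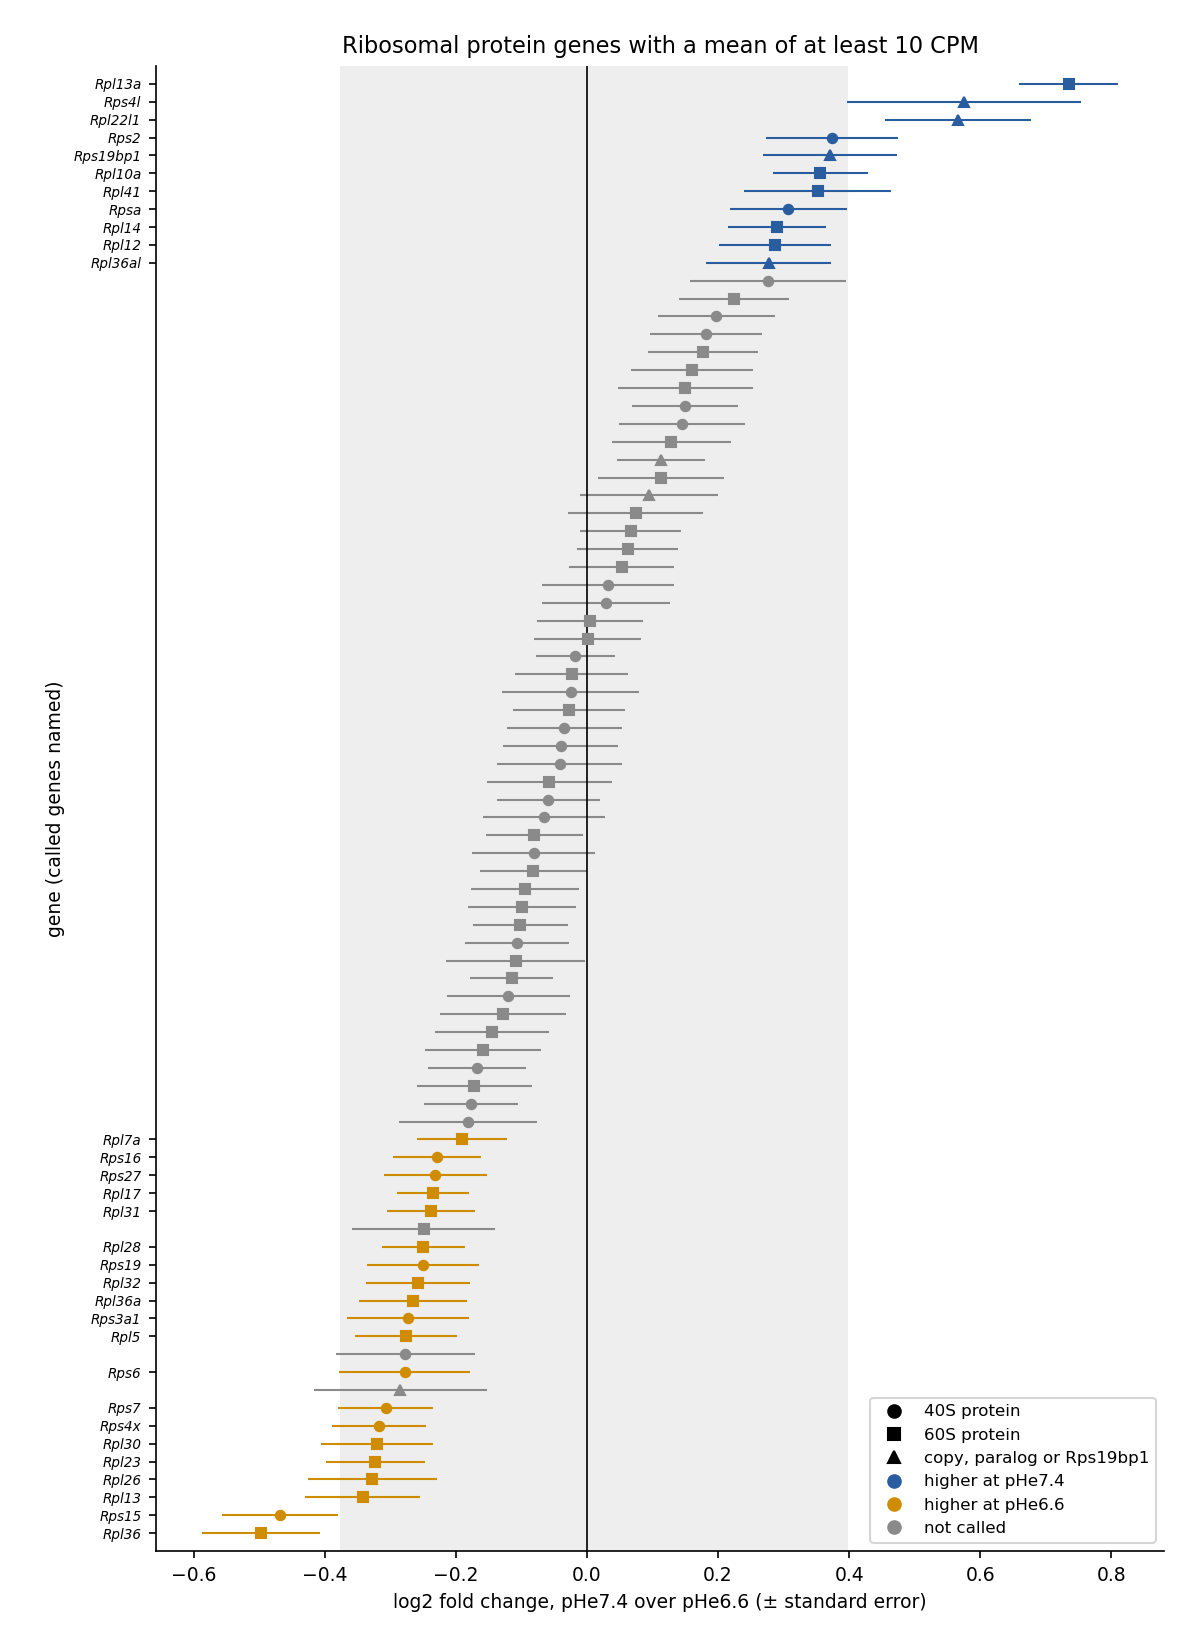
Each point gives the log2 fold change, pHe7.4 over pHe6.6, of 1 of the 82 ribosomal protein genes with a mean of at least 10 CPM, and the bars are standard errors. Blue and orange points are the genes called higher at pHe7.4 (11) or at pHe6.6 (20), grey points, which carry no name, were not called, and the shaded band spans the quartiles of all genes tested (−0.38 to 0.40), which holds all but 5 of the 82 points.

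Among the genes higher at pHe7.4, the change in Rpl13a stood out in every library. Its level was 50.4, 55.0 and 49.6 CPM in the pHe6.6 libraries A, B and C and 86.6, 91.8 and 79.5 CPM at pHe7.4. The lowest library at pHe7.4 thus lay well above the highest at pHe6.6, and the log2 fold change was 0.74 (SE 0.076, adjusted p = 0.000203). Rpl13a (chr7:45125558-45128761) overlaps Gm45713, Mir5121 and Snord33 over 35.4% of its exon bases, and 56.3% of the 75-base windows of its transcript, the length of a read, occur in other genes too.

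Rpl22l1, the paralog of the 60S protein Rpl22, had 23.8, 24.7 and 20.9 CPM at pHe6.6 against 32.5, 39.3 and 31.0 CPM at pHe7.4. All 3 libraries at pHe7.4 were higher, with a log2 fold change of 0.57 (SE 0.11, adjusted p = 0.00407). Rpl10a, a protein of the L1 stalk of the 60S subunit, had 144, 156 and 145 CPM at pHe6.6 against 183, 205 and 182 CPM at pHe7.4. The groups did not overlap, and the log2 fold change was 0.36 (SE 0.073, adjusted p = 0.00489). These 3 genes, Rpl13a, Rpl22l1 and Rpl10a, were the only ones called higher at pHe7.4 whichever single library was left out. Of the 75-base windows of Rpl22l1 and Rpl10a, 58.6% and 87.6% occur in other genes.

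Rps2, a 40S protein near the entry of the mRNA channel, had 223, 230 and 191 CPM at pHe6.6 against 266, 311 and 258 CPM at pHe7.4, with a log2 fold change of 0.37 (SE 0.10, adjusted p = 0.0165). Rpl14, of the 60S subunit, had 205, 209 and 196 CPM against 244, 270 and 232 CPM, with a log2 fold change of 0.29 (SE 0.075, adjusted p = 0.0137). Neither gene's groups overlapped, yet both calls were lost without replicate C at pHe6.6, which was the lowest library for each (adjusted p = 0.0635 for Rps2 and 0.0625 for Rpl14). Rps19bp1 had 15.3, 12.9 and 13.0 CPM at pHe6.6 against 18.5, 18.3 and 16.4 CPM at pHe7.4, a log2 fold change of 0.37 (SE 0.10, adjusted p = 0.0172), and the call was lost without replicate C at pHe6.6 or replicate A at pHe7.4 (highest adjusted p = 0.0675). The remaining genes called higher at pHe7.4 were Rpl12, Rpl41 and Rpsa, with log2 fold changes of 0.29 to 0.35 and adjusted p of 0.0214 to 0.0308, and the copies Rpl36al and Rps4l. Rpsa, known also as the laminin receptor, and Rpl41, which encodes a very short basic peptide, are counted here by their mRNA alone.

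Among the genes higher at pHe6.6, Rpl36, of the 60S subunit, had 134, 129 and 124 CPM at pHe6.6 against 81.6, 103 and 89.5 CPM at pHe7.4. Every library at pHe6.6 was higher, and the log2 fold change was −0.50 (SE 0.090, adjusted p = 0.00283). Rps15, a 40S protein at the decoding centre, had 496, 455 and 451 CPM at pHe6.6 against 315, 376 and 323 CPM at pHe7.4. The groups were again apart, with a log2 fold change of −0.47 (SE 0.088, adjusted p = 0.00342). Of the read-length windows of Rps15, 19.7% occur in other genes, against 70.9% of those of Rpl36.

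Rps4x, an X-linked protein of the 40S subunit, had 434, 432 and 414 CPM at pHe6.6 against 335, 367 and 325 CPM at pHe7.4 (log2 fold change −0.32, SE 0.071, adjusted p = 0.00731). Rps7, a 40S protein mutated in some human families with Diamond-Blackfan anaemia, had 346, 337 and 333 CPM against 269, 296 and 256 CPM (log2 fold change −0.31, SE 0.073, adjusted p = 0.00929). For both, the lowest library at pHe6.6 exceeded the highest at pHe7.4. Rpl23, at the face of the 60S subunit that meets the 40S subunit, had 318, 311 and 307 CPM against 236, 274 and 239 CPM (log2 fold change −0.32, SE 0.075, adjusted p = 0.00876). Rpl17, at the peptide exit tunnel, had 110, 109 and 109 CPM against 89.3, 93.3 and 95.8 CPM, with a log2 fold change of −0.24 (SE 0.055, adjusted p = 0.00907). These 6 genes, Rpl36, Rps15, Rps4x, Rps7, Rpl23 and Rpl17, were called whichever single library was left out. The other called genes were Rpl5, Rpl36a, Rps27, Rpl13, Rpl26, Rpl28, Rpl30, Rpl31, Rpl32, Rpl7a, Rps16, Rps19, Rps3a1 and Rps6, with log2 fold changes between −0.34 and −0.19 and adjusted p up to 0.0495. Rps6 is the substrate of the S6 kinases downstream of mTOR.

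**Figure D2:**
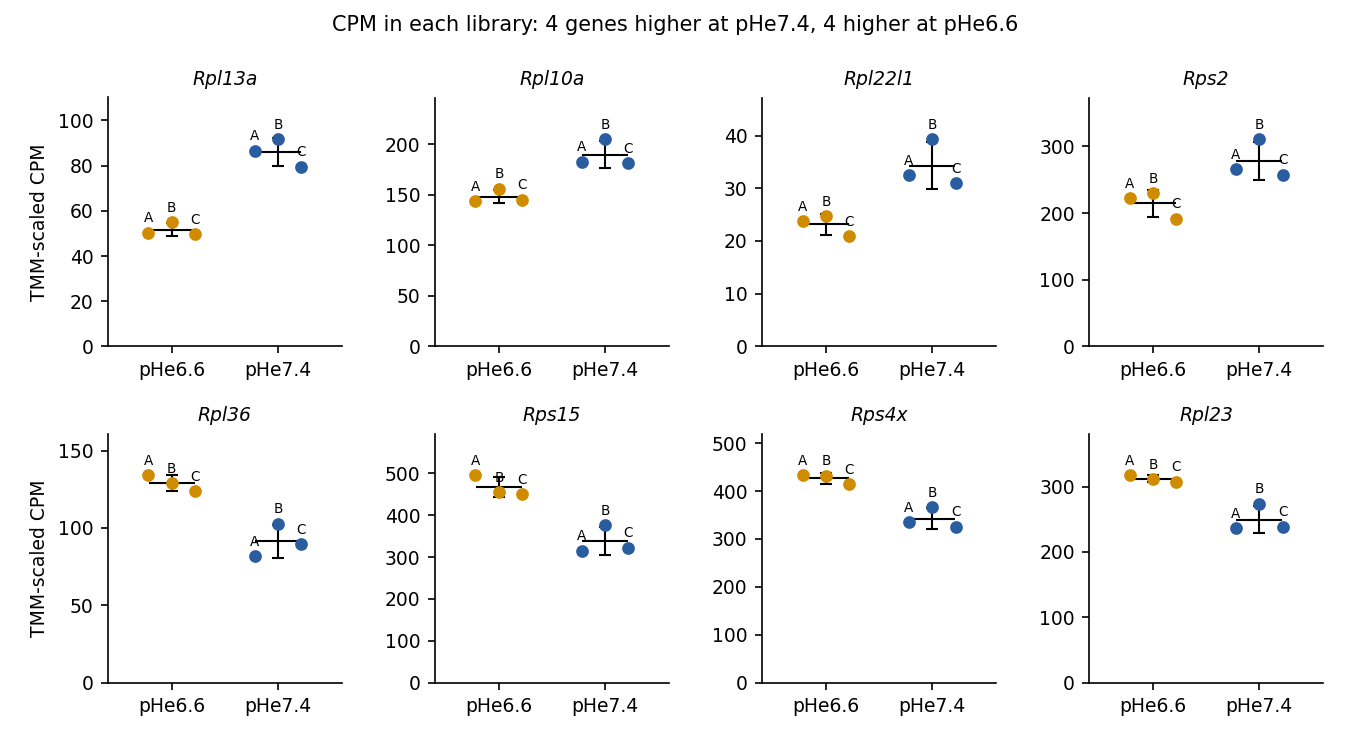
TMM-scaled CPM, on axes that start at 0, of 4 genes called higher at pHe7.4 (Rpl13a, Rpl10a, Rpl22l1 and Rps2) and 4 called higher at pHe6.6 (Rpl36, Rps15, Rps4x and Rpl23) in replicates A, B and C. Black lines give the mean ± SD of 3 libraries, and in none of the 8 genes do the libraries of the groups overlap.

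Most of the genes shared 1 feature across libraries. Replicate B at pHe7.4 was the highest library of its group for 82 of the 85 genes, whereas it was the highest for 38.4% of all genes tested and for 35.1% of those with a mean of at least 50 CPM. Among the 82 genes with at least 10 CPM, its level was a median of 1.19 times the mean of the other libraries of its group (quartiles 1.15 and 1.23). Replicate C was the lowest of that group for 66 of the 85 genes. At pHe6.6, replicate A was the highest for 57 genes and replicate C the lowest for 69, but the median ratios to the other libraries were closer to 1, at 1.05, 1.01 and 0.946 for A, B and C.

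Replicate B at pHe7.4 also had the fewest counts (28904761) and the highest TMM factor (1.09). Its fibroblast and stellate markers summed to 38700 CPM, against 48800 and 47700 CPM in replicates A and C, and its acinar markers to 4.26 CPM against 15.7 and 56.8 CPM. Its mesothelial sum, 1510 CPM, lay between 1370 and 1520 CPM. The part of these values in the ribosomal protein levels was not tested. Without replicate B at pHe7.4, 35 genes were called with higher levels at pHe6.6 (24.9% of all genes) and 9 at pHe7.4 (23.7%), and the median log2 fold change was −0.15, against −0.06 with it. Without replicate C at pHe7.4, the counts were 6 and 11 (22.3% and 21.3% of all genes) and the median 0.00. Of the other libraries, 3 moved at least 1 of these counts by more than 1.5 times. The counts were 10 and 8 without replicate A at pHe6.6 (23.6% and 22.7% of all genes), 12 and 3 without replicate C at pHe6.6 (22.1% and 19.5%) and 8 and 7 without replicate A at pHe7.4 (22.3% and 20.9%).

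**Figure D3:**
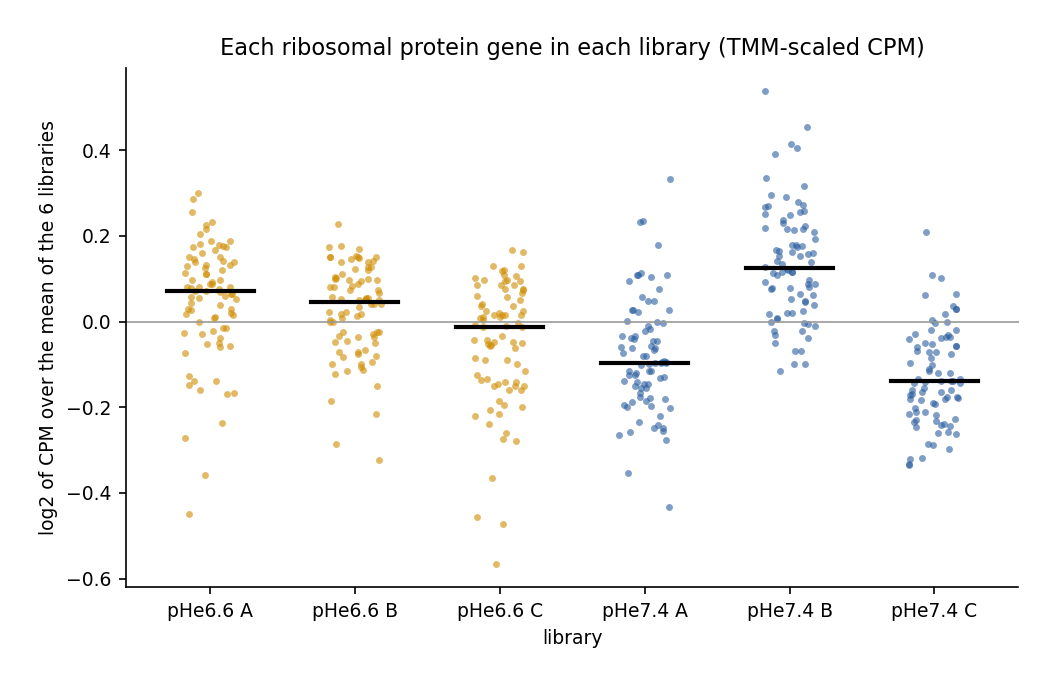
Each point is 1 of the 82 ribosomal protein genes with at least 10 CPM in 1 library, as the log2 of its TMM-scaled CPM over its mean across the 6 libraries, and black lines are medians. The points of replicate B at pHe7.4 lie higher than those of replicates A and C of the same group.

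The sum over all 85 genes gave no clear difference. The members took 1.90%, 1.91% and 1.83% of all counts in the 3 libraries at pHe6.6 (A, B, C) and 1.93%, 2.35% and 1.91% at pHe7.4. The mean share was 1.88% ± 0.0439 at pHe6.6 against 2.06% ± 0.244 at pHe7.4 (SD, n = 3), and the excess at pHe7.4 came mostly from replicate B. Scaled by TMM, the order of the means was the opposite, with a summed level of 19970 ± 683 CPM at pHe6.6 against 19420 ± 1860 CPM at pHe7.4. The difference was smaller than the SD at pHe7.4 on either scale. The ratio of 40S to 60S counts, which no scaling changes, was 0.722, 0.711 and 0.714 at pHe6.6 and 0.687, 0.707 and 0.688 at pHe7.4. All 3 ratios were lower at pHe7.4, by a mean of 0.022, although replicate B came close to the lowest library at pHe6.6.

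The direction of the small changes depended on the scaling. With total counts only, the median log2 fold change rose to 0.12 for the ribosomal protein genes and from 0.01 to 0.18 for all genes, and 2 ribosomal protein genes were called higher at pHe6.6 (17.9% of all genes) and 25 at pHe7.4 (37.6%). With the summed counts of the ribosomal protein genes themselves as library size, 9 and 14 were called (19.7% and 24.5% of all genes), and with upper-quartile factors 13 and 12 (24.6% and 27.7%). Relative to the median of all genes, the median of the ribosomal protein genes stayed between −0.08 and −0.07 under each of these scalings. A scaling shifts all genes of a library alike, so it could hardly change this difference. The choice of libraries could, as it was −0.154 without replicate B and −0.005 without replicate C at pHe7.4. All 11 genes called higher at pHe7.4 were called in that direction under every scaling. Of the 20 called higher at pHe6.6, Rpl36 and Rps15 were. The median log2 fold change of all genes was 0.011 with TMM and 0.009 to 0.184 under the other scalings. Shifts upward favour calls at pHe7.4, so these counts do not rank the 2 directions. When each library was left out in turn, 3 of the 11 and 6 of the 20 stayed called. No gene was called in opposite directions by any of the 17 settings.

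**Figure D4:**
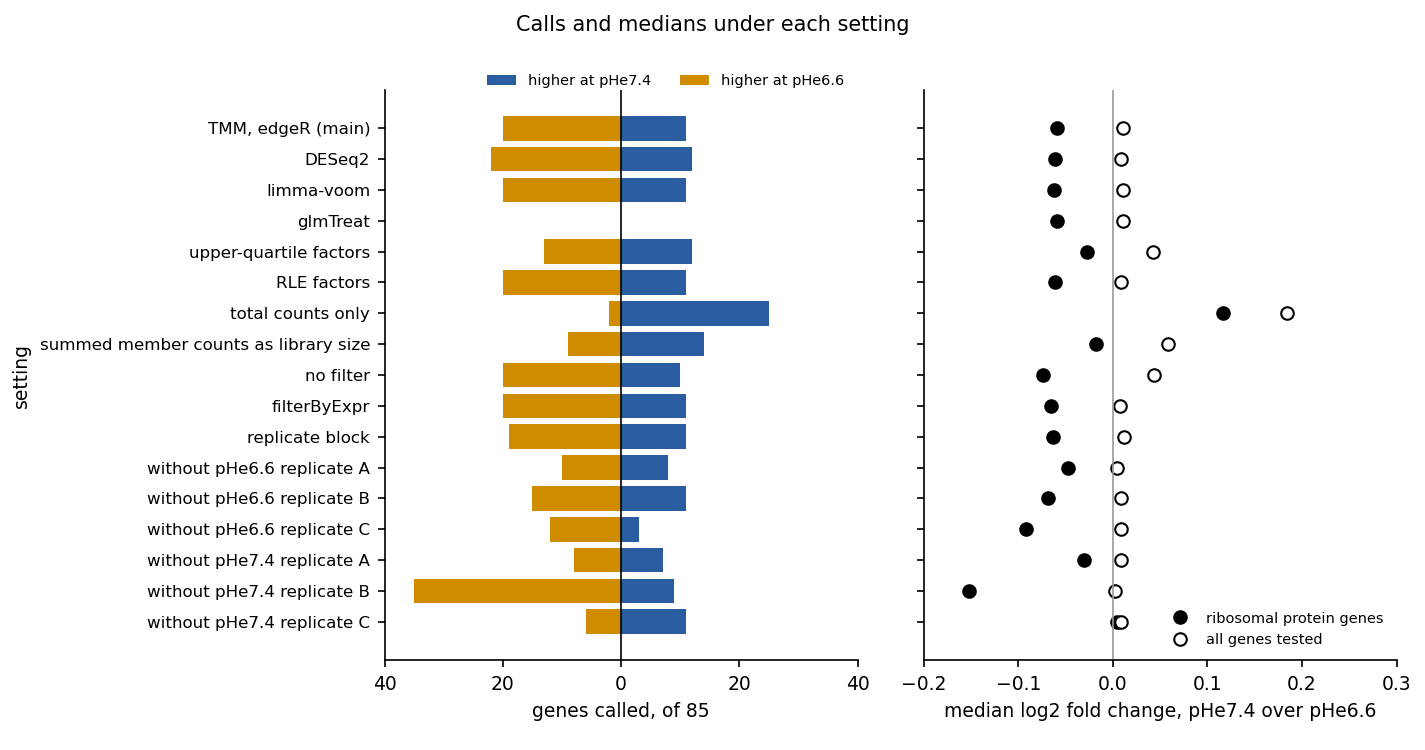
For each setting, the left panel gives how many of the 85 ribosomal protein genes were called, to the right in blue for higher at pHe7.4 and to the left in orange for higher at pHe6.6, and the right panel the median log2 fold change of these genes (filled) and of all genes tested (open). With total counts only both medians move up together, to 0.12 and 0.18, and without replicate B at pHe7.4 only the median of the ribosomal protein genes moves, to −0.15.

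By subunit, 8 of the 31 genes for 40S proteins were called higher at pHe6.6 and 2 the other way, with a median log2 fold change of −0.07. Of the 45 for 60S proteins, 12 and 5 were called, with a median of −0.08. Over all genes tested, 26.4% and 25.9% were called in these directions. By place in the ribosome, in groups drawn up after the values were seen, the 4 genes of the acidic stalk and its base, which recruits the elongation factors, all had log2 fold changes above 0 (median 0.15), and Rpl12, at the base, was the 1 called. Rplp0 had 821, 834 and 742 CPM at pHe6.6 against 897, 961 and 851 CPM at pHe7.4. These groups did not overlap, but the log2 fold change of 0.18 (SE 0.084) did not pass the test (adjusted p = 0.112). Rplp1 had a log2 fold change of 0.11 (SE 0.097, adjusted p = 0.353), and its levels overlapped, at 794, 756 and 704 CPM against 776, 910 and 751 CPM. Rplp2 was similar, with 248, 234 and 215 CPM against 225, 281 and 227 CPM and a log2 fold change of 0.07 (SE 0.10, adjusted p = 0.566). Per kilobase of transcript, Rplp1 was the most abundant of the 85 genes (1567 CPM per kb), followed by Rps15 (804.9), Rplp0 (627) and Rpl4 (613). Rpl23a, listed at 0.672 CPM per kb, had the lowest value, and other genes overlap 62.3% of its exon bases. Whether its reads were counted for other genes was not tested, so this need not be its abundance.

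The proteins of the 5S particle differed from each other. Rpl5 had 397, 407 and 402 CPM at pHe6.6 against 322, 364 and 309 CPM at pHe7.4, with every library at pHe6.6 the higher (log2 fold change −0.28, SE 0.078, adjusted p = 0.0192). Rpl11 had 255, 245 and 238 CPM against 248, 319 and 253 CPM, and these overlapped, with a log2 fold change of 0.15 (SE 0.10, adjusted p = 0.253). In Rpl5, 92.5% of the read-length windows occur in other genes, and its call was lost without replicate C at pHe6.6, replicate A at pHe7.4 or replicate C at pHe7.4 (highest adjusted p = 0.0759). Of the 10 proteins that line or surround the peptide exit tunnel, 3 were called higher at pHe6.6 (Rpl17, Rpl26 and Rpl31). Of the 5 at the mRNA entry and exit of the 40S subunit, Rps2 and Rpsa were called higher at pHe7.4. Of the 11 genes on a list of those mutated in Diamond-Blackfan anaemia in humans, Rps19, Rps7, Rpl5 and Rpl26 were called higher at pHe6.6 and 7 were not called. Genes called with more mRNA in the acidic medium made up 26.4% of all genes tested, and those called the other way 25.9%. Whether these small sets depart from such shares was not tested.

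The paralogs were compared with their parents by the ratio of their counts, which does not depend on the scaling of the libraries. The counts are not corrected for length, so only the change of a ratio between libraries can be read. Read-length windows that occur in other genes made up 1.4% of Rpl22, 41% of Rpl7 and 52.9% of Rps4x. They made up 84.6% of Rpl36a and 98.5% of Rps27. The part of shared sequence in the ratios was not tested. Rpl22l1 had 12.4, 13.1 and 12 counts for every 100 of Rpl22 at pHe6.6 and 19.2, 19.4 and 19.2 at pHe7.4. The ratio was thus higher at pHe7.4 in every library, with means of 12.5 ± 0.595 and 19.3 ± 0.124 (SD, n = 3). Rpl22 itself had 192, 188 and 175 CPM at pHe6.6 against 170, 203 and 161 CPM at pHe7.4, and was not called (log2 fold change −0.06, SE 0.095, adjusted p = 0.634).

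Rps4l, a paralog of Rps4x, had 5.64, 6.92 and 5.12 counts per 100 of Rps4x at pHe6.6 and between 9.31 (replicate C) and 12.4 (replicate B) at pHe7.4. Its own level was 24.5, 29.9 and 21.2 CPM against 36.9, 45.6 and 30.3 CPM, with groups that came close to each other but did not overlap (log2 fold change 0.58, SE 0.18, adjusted p = 0.0316). Rpl36al, a paralog of Rpl36a, had 22.1, 23.1 and 23.2 counts per 100 of Rpl36a at pHe6.6 and 34.9, 33.8 and 30.8 at pHe7.4. Here both genes were called, in opposite directions. Rpl36al had 28.4, 28.0 and 27.8 CPM against 33.1, 38.7 and 30.2 CPM (log2 fold change 0.28, SE 0.095, adjusted p = 0.0409). Rpl36a had 129, 121 and 120 CPM against 94.95, 114 and 98.2 CPM (log2 fold change −0.27, SE 0.082, adjusted p = 0.0278). Both groups of libraries were apart for either gene. Rps4l was no longer called without replicate A or C at pHe6.6 or without replicate A or B at pHe7.4 (adjusted p up to 0.0982). Of the fits without 1 library, Rpl36al was called only in that without replicate C at pHe7.4 (up to 0.114 in the others), and the call of Rpl36a was lost without replicate A or C of either group (up to 0.0977).

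Rps27l, a paralog of Rps27 whose human gene is a target of p53, had 43.5, 50.7 and 38.4 counts per 100 of Rps27 at pHe6.6 and 53.3, 57.3 and 54.8 at pHe7.4. Its own level overlapped between the groups, at 93.2, 96.9 and 78.5 CPM against 91.1, 108 and 88.1 CPM (log2 fold change 0.09, SE 0.11, adjusted p = 0.479). Rps27 had 214, 191 and 204 CPM at pHe6.6 against 171, 188 and 161 CPM at pHe7.4, with a log2 fold change of −0.23 (SE 0.079, adjusted p = 0.0393). That call was lost without replicate A or C of either group (adjusted p up to 0.135). Rpl7l1, which acts in the assembly of the 60S subunit, had 20.7, 19.7 and 19.2 counts per 100 of Rpl7 at pHe6.6 and 23.4, 22.7 and 23.2 at pHe7.4. Neither Rpl7l1 (log2 fold change 0.11, SE 0.067) nor Rpl7 (−0.10, SE 0.073) was called by itself. For these 5 pairs all ratios at pHe7.4 exceeded all at pHe6.6, which gave p = 0.1 in a two-sided exact permutation test, the smallest that 3 libraries against 3 allow, and an adjusted p of 0.12 over the 6 pairs. The remaining pair, Rps27rt with Rps27, had ratios of 0.266 to 0.644 that overlapped (p = 0.5 in the same exact test).

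**Figure D5:**
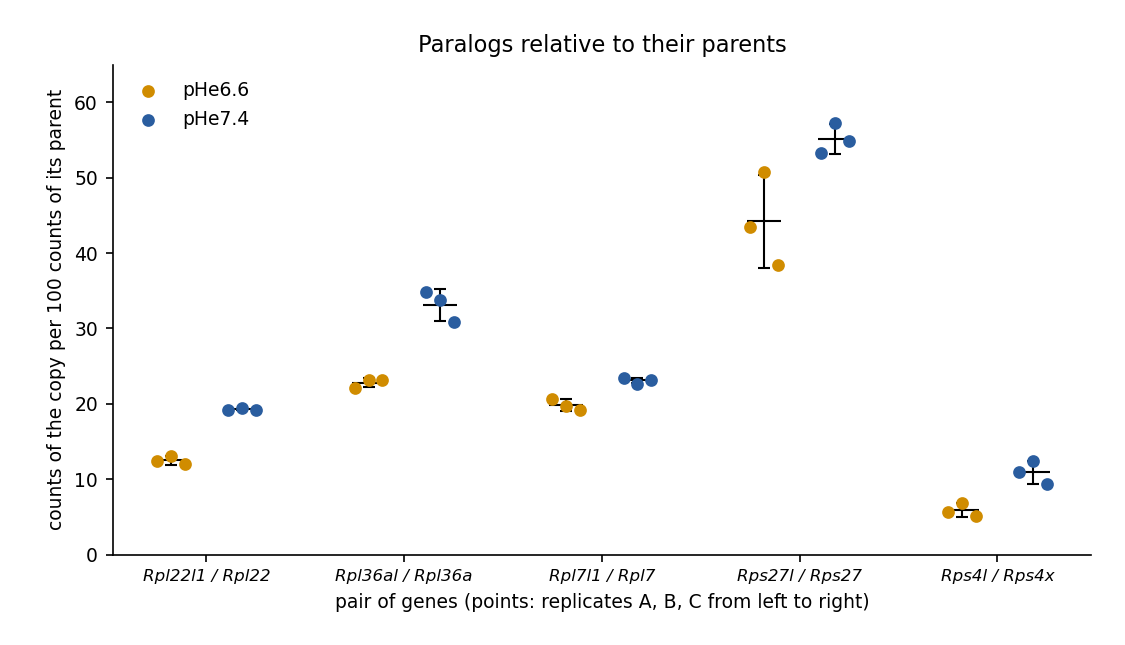
Counts of 5 paralogs per 100 counts of their parents in replicates A, B and C, with black lines for the mean ± SD of 3 libraries. In each pair the 3 ratios at pHe7.4 lie above the 3 at pHe6.6, by the widest margin relative to their spread for Rpl22l1 and Rpl22 (12.5 ± 0.595 against 19.3 ± 0.124).

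Ribosomal protein genes have many processed copies in the genome, and a read from such a gene can match several of them. A median of 42.6% of the read-length windows of the 85 transcripts occurred in transcripts of other genes. The split at 30% was chosen after the values were seen. Of the 28 genes with at most 30% of windows shared, 3 were called in each direction (21.4%). Of the 57 above 30%, 17 were called higher at pHe6.6 and 8 the other way (43.9%). Of all genes tested, 52.3% were called. Rps3, of the 40S subunit, shared no window with another gene and was not called (log2 fold change 0.03, SE 0.10). The part of shared sequence in the calls was not tested. At the other end, Rpl23a shared 81.7% of its windows with 17 other genes, and other genes overlapped 62.3% of its exon bases. It had 0.610, 0.115 and 0 CPM at pHe6.6 against 0.302, 0.699 and 0.532 CPM at pHe7.4, levels that overlap. Rps3a3, a copy of Rps3a1, had 1.70, 0.459 and 1.30 CPM at pHe6.6 against 0.705, 0.127 and 0.296 CPM at pHe7.4, again with overlap (log2 fold change −1.55, SE 0.66, adjusted p = 0.0837). Rps27rt had 0.542 to 1.06 CPM and 0.554 to 1.21 CPM.

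Another 8 genes carry names of this kind in the reference but were not among the 85, because the table that supplied the names holds only genes with sufficient counts. Rpl24 had 4 to 11 counts per library, Rpl32l at most 25, Rpl6l at most 20, Rps3a2 at most 11, Rpl3l at most 5 and Rpl39l at most 4. Rpl10l and Rps12l1 had none. Of the pseudogenes named -ps, which together took 0.0224% to 0.0284% of the counts, 36 were tested, and 3 were called higher at pHe6.6 and 1 the other way. Over all genes tested, 26.4% and 25.9% were called in these directions.

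Genes with the pyrimidine run stood in both directions. Of the 36 genes with a run, 6 were called in each direction, with a median log2 fold change of −0.01. The share of all genes tested was 26.4% for calls higher at pHe6.6 and 25.9% for the other direction. Of the 27 with a promoter but no run, 10 were called higher at pHe6.6 and 4 the other way, with a median of −0.12. No test of that difference was made.

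Among ribosome components that the naming leaves out, Fau, whose product carries a 40S protein fused to a ubiquitin-like peptide, averaged 125 ± 8.93 and 102 ± 11.2 CPM (SD, n = 3) in the order pHe6.6, pHe7.4 (log2 fold change −0.29, SE 0.093, adjusted p = 0.0318). Rack1, a signalling scaffold on the 40S subunit, did not pass the test, at 793 ± 25.2 and 769 ± 59.6 CPM (log2 fold change −0.04, SE 0.082, adjusted p = 0.666). Fau was called only with all libraries or without replicate C at pHe6.6 or replicate B at pHe7.4 (adjusted p up to 0.112).

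The lists of factors that work with the ribosome were read against the same background, 25.9% of all genes called higher at pHe7.4 and 26.4% lower. Pdcd2 had no count, and Bxdc5 and Znf598 matched no symbol. Of 16 initiation factors outside eIF3, 14 were called higher at pHe7.4 and 1 lower, with a median log2 fold change of 0.32. Eif4a1, the main RNA helicase of initiation, rose from 255 ± 8.17 to 371 ± 36.8 CPM (log2 fold change 0.54, SE 0.084, adjusted p = 0.00139), and Eif4a2, its close paralog, was the 1 that fell, from 201 ± 10.7 to 143 ± 3.24 CPM (−0.50, SE 0.063, adjusted p = 0.000535). Eif5, which triggers GTP hydrolysis at the start codon, rose with a log2 fold change of 0.49 (SE 0.068). Of the 13 subunits of eIF3, the scaffold that binds the 40S subunit, 5 were higher and 1 lower at pHe7.4. Eif3b (0.57, SE 0.069) and Eif3l (0.51, SE 0.056) had the smallest adjusted p of those that rose, and Eif3f (−0.36, SE 0.057) fell.

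Among 10 elongation and termination factors, 6 were higher and 1 lower at pHe7.4. Eif5a, which relieves stalling at proline runs, rose from 328 ± 23.4 to 540 ± 26.9 CPM (log2 fold change 0.72, SE 0.079, adjusted p = 0.000285). Eef2k, the kinase that inhibits the elongation factor eEF2, was the 1 that fell, from 40.2 ± 3.58 to 23.3 ± 2.57 CPM (−0.79, SE 0.10, adjusted p = 0.000650). Eef1a1, itself encoded by a TOP mRNA and the most abundant gene of the list, did not pass the test (−0.15, SE 0.081, adjusted p = 0.146). In the list of 20 other TOP mRNAs, 7 were higher and 1 lower at pHe7.4 and the median was 0.03. Npm1, a nucleolar chaperone of ribosome assembly, rose from 264 ± 20.6 to 478 ± 52.7 CPM (0.86, SE 0.10, adjusted p = 0.000371), and Snhg1, a host transcript of small nucleolar RNAs, rose from 14.5 ± 0.285 to 25.6 ± 1.47 CPM (0.82, SE 0.077).

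Genes that control the translation of TOP mRNAs were split, with 6 of 17 higher and 4 lower at pHe7.4. Mtor, the kinase itself, fell from 85.8 ± 1.17 to 62.3 ± 7.58 CPM (−0.46, SE 0.091, adjusted p = 0.00412). Akt1s1, an inhibitor within the mTOR complex 1 also known as PRAS40, rose from 61.6 ± 1.34 to 91.4 ± 0.926 CPM (0.57, SE 0.053), and Tial1, which binds TOP mRNAs in starved cells, rose from 45.6 ± 2.30 to 82.0 ± 3.44 CPM (0.85, SE 0.066, adjusted p = 6.13e-05). Larp1 did not pass the test (0.10, SE 0.065, adjusted p = 0.224). The list on chaperones and importers of ribosomal proteins shares Abce1 with the list on rescue of stalled ribosomes below. Of its 11 tested genes, 6 were higher and 1 lower at pHe7.4. Those with the smallest adjusted p were Grwd1, whose yeast counterpart is the chaperone of Rpl3 (0.82, SE 0.078), Ltv1, which acts in 40S assembly (0.66, SE 0.069), and Heatr3, which in yeast and human cells carries Rpl5 into the nucleus (0.61, SE 0.074).

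On the arm from the 5S particle to p53, 3 of 13 genes were higher and 3 lower at pHe7.4. Trp53 rose from 85.2 ± 7.28 to 124 ± 4.37 CPM (0.54, SE 0.075, adjusted p = 0.000827), while Cdkn1a, a target of p53, fell from 456 ± 47.8 to 261 ± 21.8 CPM (−0.80, SE 0.10, adjusted p = 0.000506). These are mRNA levels. By Western blot, the paper reported p53 protein to be higher at pHe6.6. In the list on rescue of stalled ribosomes, 3 of 11 were higher, among them Pelo (0.47, SE 0.083), and Ankzf1 was the 1 that was lower (−0.31, SE 0.089), a call lost without replicate A or C at pHe6.6 or without replicate A or B at pHe7.4. All 6 genes of the list on ribosome hibernation and dormancy were called, 3 in each direction. Serbp1, which occupies the mRNA channel of idle ribosomes, rose from 310 ± 9.92 to 413 ± 17.6 CPM (0.41, SE 0.066), Ifrd1 fell (−0.37, SE 0.071) and Ifrd2 rose (0.37, SE 0.073). Larp6 is counted among the 6, though it is known best as the protein that binds collagen mRNAs. Its level fell from 17.8 ± 1.54 to 6.48 ± 0.885 CPM (−1.46, SE 0.13, adjusted p = 1e-04).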

How the data were processed

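The authors prepared poly(A) libraries with a directional kit, aligned single reads with HISAT2 2.2.1 (genome mm10), and obtained counts for Ensembl genes by featureCounts 2.0.1. The annotation release and the strand setting are not given in the sources used here, so a gene and its overlapping partner may share reads. The deposited values are raw counts. A second table by the authors, from limma 3.50.1, holds log2 fold changes, scores and p-values, of which none were used; it supplied gene names only. The 15197 genes that reached 0.5 CPM in 2 or more libraries were compared in R 4.3.3 by edgeR 4.0.16 (TMM factors, robust quasi-likelihood test, no covariate, Benjamini-Hochberg adjustment over all genes, threshold 0.05). The standard error was taken as the size of the log2 fold change over the square root of F, and it and the p-values measure the spread between 3 cultures. Count ratios were compared by exact permutation tests. Alternatives used limma 3.58.1, DESeq2 1.42.0, other scalings and filters, a replicate block and each library left out. Plots were drawn with matplotlib 3.10.9. The test was also run on simulated counts. These held fewer changed genes than were called here, and larger changes than most ribosomal protein genes showed. That run therefore does not vouch for changes as small as theirs. Gene positions came from GENCODE vM21 (GRCm38), and shared windows of 75 bases were counted over its transcripts. Transcript lengths are those of the principal transcript.

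The members and lists were chosen with earlier results of these data known. Genes given with all libraries were, by rule, the 6 with the smallest p and the 3 with the largest change in each direction, the most abundant per length, the stalk and 5S particle proteins and each paralog with its parent; in the lists, up to 4 genes with the smallest p and the most abundant. Other names were chosen after their values were seen. Some genes that these rules name are withheld and not reported here.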

Additional observations from a re-analysis of the deposited data

How the results depend on the processing

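The test in which the fold limit of 0.58 (log2) is part of the null hypothesis, edgeR's glmTreat, called 0 ribosomal protein genes in either direction (7.02% of all genes higher at pHe7.4, 8.33% the other way), where DESeq2 called 12 and 22 (26% and 26.5%) and limma-voom 11 and 20 (26.6% and 26.4%). Its smallest adjusted p was 0.0618, for Rpl13a, and 1 gene had an unadjusted p under 0.05. With total counts only, 25 genes were called higher at pHe7.4 (37.6% of all genes) and 2 the other way (17.9%), with a median log2 fold change of 0.117. Genes higher at pHe6.6 numbered 13 with upper-quartile factors (24.6% of all genes) and 9 with the summed ribosomal protein counts as library size (19.7%). Leaving out each library in turn gave 6 to 35 genes higher at pHe6.6 (22.1% to 25.6% of all genes). At pHe7.4 it gave 3 to 11 (19.5% to 25.8%), and the medians were −0.152 to 0.004. With the replicate letter as a replicate block, 11 genes were called higher at pHe7.4 (23.7% of all genes) and 19 at pHe6.6 (25%). Of these, 10 and 18 were called without it. Rpl36al, Rps27 and Rpl7a were not called with the block, and Rpl3 and Rps3a3 were called only with it among these 2 fits. Deviations from the group means correlated between libraries of the same letter at −0.0775, −0.0145 and 0.284 for A, B and C. With 3 libraries per mean, these values cannot settle whether the letters are pairs. The labels do not say, and the main fit took the libraries as independent. The filters moved neither count of ribosomal protein genes by more than 1.5 times. Of 1152 values of 72 named genes under the alternatives, 1021 stayed on their side of the threshold, 120 lost a call, 11 gained one and 0 turned a called direction. Of the 1152, 13 values had another sign than the main value, all of 9 genes that were not called (Eef1a1, Nap1l1, Rack1, Rpl22, Rpl7, Rplp2, Rps27l, Rps27rt and Tcf25).

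With 3 libraries per group, the median standard error of 0.087 sets the size of change that could be told apart, and for genes under 1 CPM (Rpl23a, Rps27rt and Rps3a3) the standard errors were 0.43 to 0.92. The value of 1 count is the step of the CPM scale and not the counting error of a gene.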
